A study of Solanum lycopersicum with 30 samples.

Results

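Roots of the tomato mutant rmc were compared with roots of the wild type (WT) after a patch of field soil had received the larger of the ammonium doses of the study, called high N here. The members were the 10 arrays whose titles give either genotype with high nitrogen, 5 of rmc and 5 of WT, out of 30 in the series. The readout was the log2 signal of 10038 probe sets of the Affymetrix tomato array, with control probe sets left out. rmc (reduced mycorrhizal colonization) is a mutant whose roots are colonized poorly by arbuscular mycorrhizal fungi, and WT roots form the symbiosis. The rmc patches at high N are labelled 65 ppm ammonium and the WT patches 100 µM, so the labelled dose and the genotype cannot be told apart in this comparison. The same holds for low N, labelled 6.5 ppm for rmc and 10 µM for WT, whereas the remaining patches of both genotypes received water. All plants were moved to field soil at 8 weeks of age, grew there for 5 weeks, and gave patch roots 24 h after the injection. The labels name no cultivar, and only 1 mutant line represents the loss of colonization. The series calls the 5 samples of a group biological replicates without saying how many plants each held.

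Arbuscular mycorrhizal fungi grow into the root cortex, take up phosphate and nitrogen from soil and pass them to the plant in exchange for carbon. A plant also takes up both nutrients directly, through phosphate and ammonium transporters of the root surface. Transcripts of direct phosphate uptake are known to be high in phosphate-starved roots and are often lower in mycorrhizal ones. The rmc mutation is a deletion known to affect the tomato homologue of CYCLOPS, a nuclear protein of the symbiosis signalling pathway. No probe set carried the name of that gene or of any other on the mycorrhiza list, and these genes were not analysed here.

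Signals had been scaled to one trimmed mean per array by the depositors. On the 10 arrays, 89.5% to 92.5% of the probe sets exceeded the 95th percentile of that array's negative controls. Replicate arrays correlated with a Pearson coefficient of 0.88 to 0.977 among rmc arrays and 0.931 to 0.962 among WT arrays, against 0.883 to 0.964 between the genotypes. rmc replicate 2 was the array least like its group, with a mean correlation of 0.905. It also had the lowest signal of the poly-A control RNAs (7.15, against 7.89 to 8.63 on the other rmc arrays) and the highest mean of the root tip list (8.89, against 7.57 to 7.96). None of 9 array measures differed between rmc and WT after adjustment by exact permutation tests (lowest adjusted p = 0.179, smallest possible unadjusted p = 0.00794). The closest were the mean of LHA1 and TIP, markers of root uptake tissue (11.4 ± 0.073 in rmc and 11.1 ± 0.2 in WT, SD, n = 5 each, exact p = 0.0317), and the actin 3' minus 5' signal (0.185 ± 0.056 in rmc and 0.0848 ± 0.077 in WT, exact p = 0.0397). Summed signal of the root tip list ran from 2088 to 3795 in rmc and from 2443 to 3325 in WT, and that of the shoot photosynthesis list from 536 to 1445 in rmc and from 564 to 1011 in WT. The summed uptake list ran from 5662 to 6554 in rmc and from 4608 to 6260 in WT. No marker stood at 0, and 0 were called. The vascular list matched no probe set.

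At high N, transcripts of psi14A, psi14B and the phosphate transporter gene PT2 were higher in rmc roots than in WT roots. Those of a small heat shock protein and of a gibberellin biosynthesis enzyme were lower. The calls of psi14A, PT2 and the gibberellin enzyme were lost in 8, 8 and 7 of the 10 fits with 1 high N array left out. Of 7528 probe sets tested, 82 (1.09%) differed with an adjusted p under 0.05 (limma, Benjamini-Hochberg adjustment), and these are called below. In rmc, 35 were higher (0.465%) and 47 were lower (0.624%). The called rises had a median of 0.82 on the log2 scale (range 0.29 to 4.7) and the called falls a median of -1.02 (range -8.98 to -0.23, the lowest fitted on rmc readings within the background), against a median of 0.006 over all probe sets tested. At least 4-fold differences made up 6 of the rises and 9 of the falls. Signals of the 5 rmc arrays and the 5 WT arrays did not overlap for 49 of the 82, and for 177 (2.35%) of all tested. Of the 35 rises 17 were free of overlap, against 1.04% of all tested in that direction, and of the 47 falls 32, against 1.32%. The calls were picked on these same arrays, which by itself favours separation, so these counts are no separate evidence for them. Because roots were measured in bulk, fewer cells of a type and less transcript per cell cannot be told apart in any of these differences.

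The number of calls rested on the choice of arrays. The fit drew its spread from all 30 arrays, and a fit on the 10 high N arrays alone called 5 probe sets, or 2 with the replicate number as a block. None of the gene-named probe sets described below was called in either of these fits. Leaving out 1 high N array also changed the 82 calls of the main fit, which drew on all 3 treatments. Without rmc replicate 2 this main fit called 142 and without WT replicate 3 it called 131. Without WT replicate 1 it called 23, without WT replicate 2 44 and without WT replicate 4 51. Without rmc replicate 1 it called 48, and without rmc replicate 3 or replicate 4 it called 36.

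**Figure D1:**
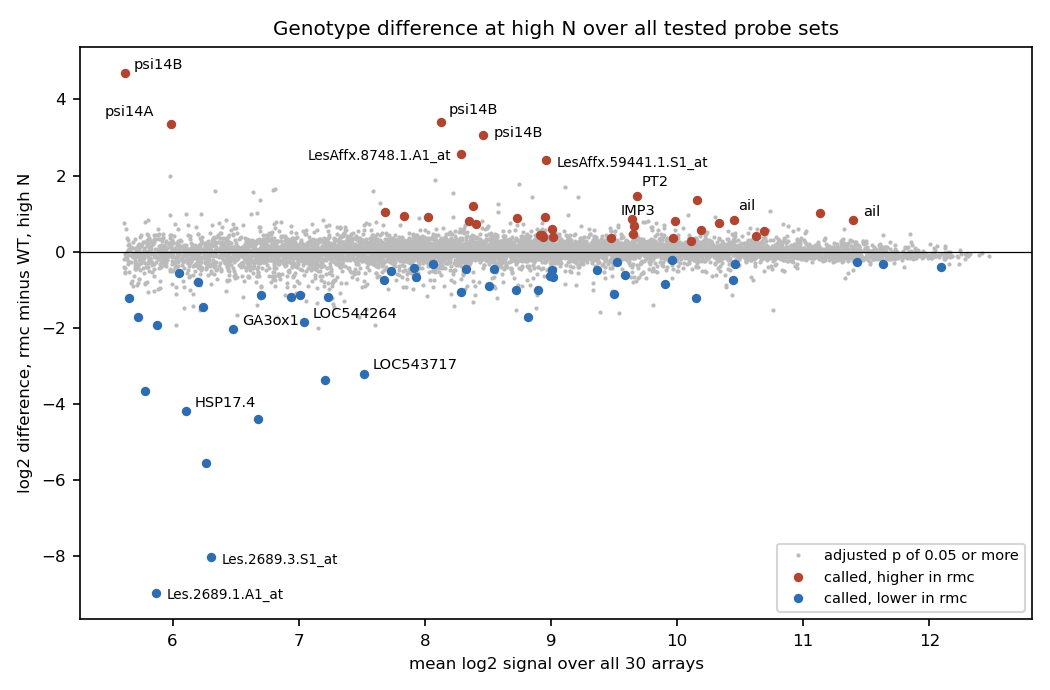
Log2 difference between rmc and WT at high N (vertical axis, rmc minus WT) against the mean log2 signal over all 30 arrays (horizontal axis), 1 point for each of the 7528 probe sets tested. The 35 called higher in rmc are red, the 47 called lower are blue and named genes are labelled; the psi14 genes lie at the top, and the lowest points, 2 unnamed probe sets marked by identifier, are fitted differences for which the text gives a bound.

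The largest rises among named genes were those of psi14B and psi14A, genes of related name. The psi14B probe set with the highest mean signal read 10.31, 9.37, 10.39, 10.83 and 10.45 in rmc, against 4.85, 6.78, 7.01, 8.25 and 9.08 in WT. Each rmc array lay above each WT array, and the WT arrays were spread much more widely than the rmc arrays. The difference was 3.08 ± 0.58 (log2, SE), or 8.45-fold higher in rmc (limma adjusted p = 0.00545). A second psi14B probe set had 10.15 ± 0.86 in rmc and 6.75 ± 1.41 in WT (SD, n = 5 each), also without overlap, a 10.6-fold rise (limma adjusted p = 0.00447).

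The third psi14B probe set read 8.83, 4.92, 9.39, 10.42 and 9.18 in rmc, against 2.33, 3.44, 3.05, 4.97 and 5.47 in WT. Its fitted difference of 4.7 ± 1.05 was called (limma adjusted p = 0.0219), although rmc replicate 2 fell within the WT range. Of the 5 WT arrays, 2 read under 3.365, the highest reading of any negative control, so the size of this difference is uncertain. psi14A read 8.14, 5.9, 8.66, 9.51 and 8.4 in rmc, against 4.38, 3.89, 4.19, 5.43 and 6.01 in WT. Its mean was 10.2-fold higher in rmc (3.34 ± 0.81, limma adjusted p = 0.0367), and again rmc replicate 2 alone overlapped with WT. That call was lost when any one array was left out other than rmc replicate 2 or WT replicate 5, with adjusted p up to 0.12. Some of these probe sets are of a type that can match several transcripts, so the split of signal between psi14A and psi14B is uncertain. The call of the third psi14B probe set was lost without WT replicate 1 or 2 or rmc replicate 1, 3 or 4 (adjusted p up to 0.0984).

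PT2 encodes a phosphate transporter of direct uptake at the root surface. Its signal was 11.02, 9.98, 10.73, 11.03 and 10.83 in rmc, against 8.47, 9.18, 10.09, 9.28 and 9.27 in WT. All rmc arrays exceeded the WT mean, and the groups overlapped through rmc replicate 2 and WT replicate 3. PT2 was 2.75-fold higher in rmc (1.46 ± 0.37, limma adjusted p = 0.0472). The call was lost when any one array was left out other than rmc replicate 2 or WT replicate 3, with adjusted p up to 0.166, and after quantile normalization.

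IMP3 encodes an inositol monophosphatase, an enzyme that releases phosphate from inositol phosphate. It read 10.47, 10.05, 10.55, 10.69 and 10.58 in rmc, against 9.59, 9.38, 9.64, 9.73 and 10.04 in WT. The groups did not overlap, and IMP3 was 1.73-fold higher in rmc (0.79 ± 0.15, limma adjusted p = 0.00519). The gene annotated ail, also named cdt4, had a pair of called probe sets, at 11.79 ± 0.28 and 10.83 ± 0.21 in rmc, against 10.96 ± 0.33 and 10.01 ± 0.32 in WT (SD, n = 5 each). They were 1.77-fold and 1.76-fold higher in rmc (limma adjusted p = 0.0259 and 0.0177), with rmc replicate 2 inside the WT range in both. Leaving out WT replicate 1 or 2, or rmc replicate 1, 3 or 4, ended both calls, and leaving out rmc replicate 5 ended the first, with adjusted p up to 0.112.

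The same rmc array was the low one across the rises. rmc replicate 2 gave the lowest rmc signal in 30 of the 35 probe sets called higher and in 6 of the 6 that were at least 4-fold higher. On the WT side, replicate 1 gave the lowest signal in 25 of the 35, and replicate 5 the highest in 21. The shares over all probe sets tested are not given here, so these patterns cannot be called particular to the rises. rmc replicate 2 is also the array with the low poly-A signal and the high root tip list, and the part of these features in the rises was not tested.

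**Figure D2:**
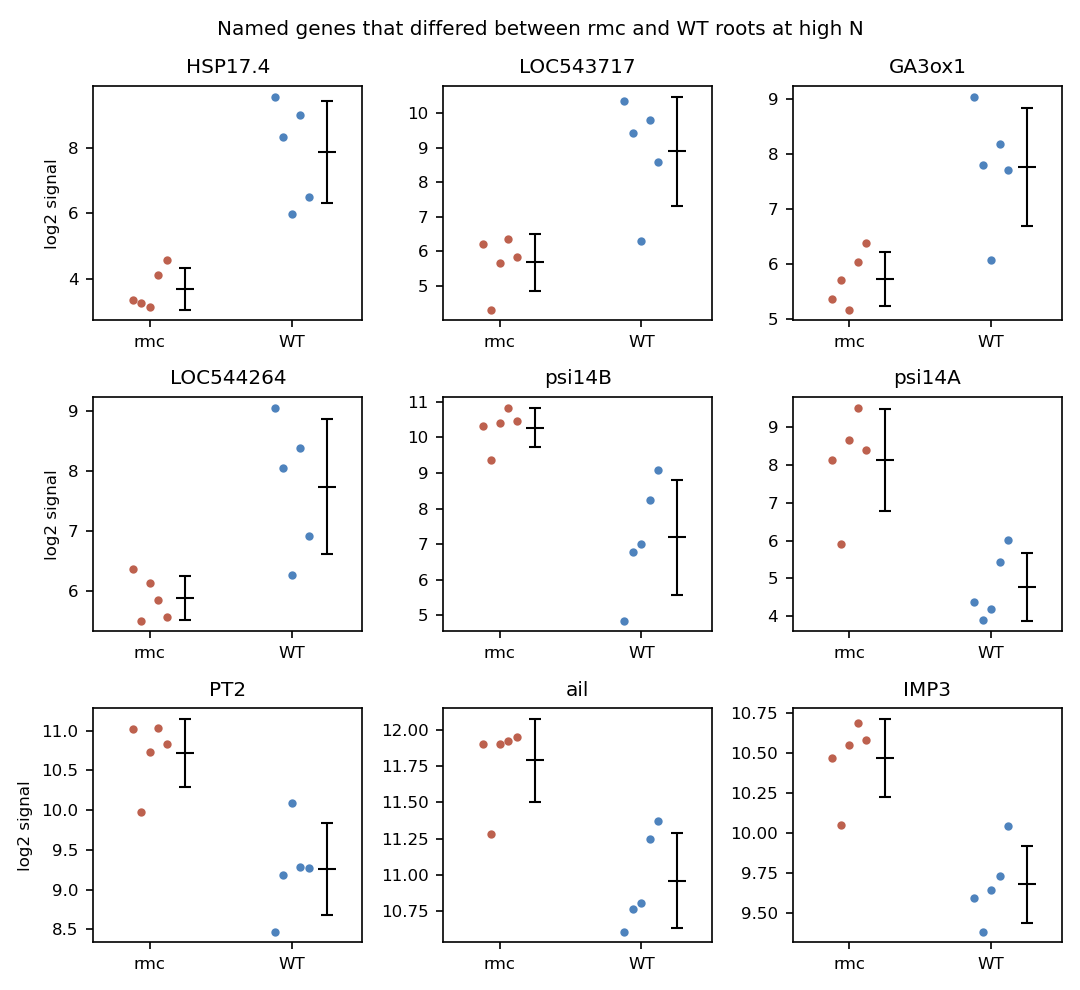
Log2 signal at high N of the 9 named genes with a called probe set, rmc on the left and WT on the right of each panel, 1 point for each of the 5 arrays, with mean and SD as bars; each panel has its own vertical scale, and psi14B and ail are shown by the probe set of highest mean signal. HSP17.4, psi14B and IMP3 show no overlap between the genotypes, and the lowest rmc point of psi14B, psi14A, PT2, ail and IMP3 is replicate 2.

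Among named genes the largest fall was that of HSP17.4, which encodes a small heat shock protein, a chaperone that binds unfolding proteins. It read 3.34, 3.25, 3.13, 4.12 and 4.58 in rmc, against 9.56, 8.33, 5.99, 9.0 and 6.5 in WT. No rmc array reached the lowest WT array, and 3 of the 5 rmc arrays lay under 3.365, the top of the negative controls. HSP17.4 was 18.3-fold lower in rmc (-4.19 ± 0.62, limma adjusted p = 0.000386), and the call held without any single high N array. WT signal ranged more widely at high N (SD 1.56) than at low N (SD 0.63) or in water (SD 0.52).

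GA3ox1 encodes gibberellin 3-oxidase, which makes the bioactive forms of this growth hormone. Its signal was 5.35, 5.7, 5.16, 6.04 and 6.37 in rmc, against 9.05, 7.81, 6.07, 8.18 and 7.71 in WT. Only WT replicate 3 lay within the rmc range. GA3ox1 was 4.12-fold lower in rmc (-2.04 ± 0.48, limma adjusted p = 0.0299). The call was lost without WT replicate 1, 2, 4 or 5 or rmc replicate 1, 3 or 4 (adjusted p up to 0.129) and with scaling to the poly-A controls (adjusted p = 0.0672).

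The other named falls were of genes known here by locus number. LOC543717 read 6.22, 4.31, 5.66, 6.37 and 5.83 in rmc, against 10.35, 9.41, 6.3, 9.8 and 8.58 in WT, 9.25-fold lower (limma adjusted p = 0.00447). LOC544264 read 6.38, 5.51, 6.14, 5.86 and 5.57 in rmc, against 9.06, 8.05, 6.28, 8.39 and 6.93 in WT, 3.6-fold lower (limma adjusted p = 0.00958). In both, WT replicate 3 was the single WT array inside the rmc range. The call of LOC544264 was lost without WT replicate 1 (adjusted p = 0.0503) and with scaling to the poly-A controls (adjusted p = 0.0505).

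WT arrays kept one order across many of the falls. In HSP17.4 the WT signal was highest in replicate 1, then 4, 2, 5 and 3. The same order of the 5 WT arrays occurred in 18 of the 47 probe sets called lower and in 6 of the 8 that were at least 8-fold lower. Both counts include HSP17.4 itself. WT replicate 3 gave the lowest WT signal in 30 of the 47, and replicate 1 the highest in 34. The shares of these patterns over all probe sets tested are not given here, so the patterns cannot be called particular to the falls.

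The deepest falls belonged to probe sets with no gene name in the annotation used. Such probe sets made up 91.5% of those called lower and 77.1% of those called higher, against 90.8% of all tested. The lowest points in the plot of all probe sets were a pair whose identifiers share a number. The first of the pair read 2.45, 0.0, 1.34, 1.43 and 1.5 in rmc, against 10.15, 10.43, 10.59, 10.51 and 9.93 in WT. The second read 2.75, 2.67, 0.07, 2.02 and 2.72 in rmc, against 9.86, 10.17, 10.35, 10.24 and 9.83 in WT. Every rmc array lay under the highest negative-control reading of 3.365, so only a bound can be given for rmc, whereas the WT arrays were high and close together. Set against that reading, the signal was at least 124-fold lower in rmc for the first (limma adjusted p = 8.99e-14) and at least 106-fold lower for the second (limma adjusted p = 4.24e-14). Whether the pair reads one transcript was not examined. They were the only 2 probe sets called by the fit on the 10 arrays with the replicate block.

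A further 4 unnamed probe sets were at least 8-fold lower in rmc, by -5.55 to -3.36 (log2), with limma adjusted p from 2.71e-06 to 0.000932. Their WT arrays were less even than those of the pair, since WT replicate 3 read 5.03 to 7.11 in them and WT replicate 1 read 9.16 to 11.06. All 4 were free of overlap between the genotypes.

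Among unnamed probe sets, the largest rise was that of a probe set that read 10.15, 9.07, 9.85, 10.24 and 10.13 in rmc, against 5.3, 7.12, 7.26, 7.76 and 9.11 in WT, a difference of 2.58 ± 0.53. The next read 10.84, 9.16, 10.77, 11.24 and 10.73 in rmc, against 6.85, 8.05, 7.8, 8.69 and 9.35 in WT, a difference of 2.4 ± 0.49 (limma adjusted p = 0.0126 for each). In both, rmc replicate 2 and WT replicate 5 were the arrays that overlapped, and the same arrays came nearest to each other in the psi14B probe set of highest signal. Leaving out WT replicate 1 ended both calls (adjusted p up to 0.07), and so did leaving out rmc replicate 4 for the second.

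The phosphate list held 6 tested probe sets of 6 genes, of which 1, PT2, was called higher and 0 lower. All 6 had a higher mean in rmc under each of the 5 scalings tried, with a median of 0.82 (log2), against 0.006 over all tested. Unadjusted p was under 0.05 for 5 of the 6, against 12.3% of all tested. These genes were chosen with earlier results of the same data known, and neither the count nor the median carries a test.

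PT1, a second phosphate transporter, read 10.93, 10.97, 10.96, 11.2 and 11.33 in rmc, against 10.18, 10.51, 10.65, 10.82 and 10.89 in WT. The groups did not overlap, and the difference of 0.47 (95% interval 0.12 to 0.82) had a limma adjusted p of 0.225. PPCK1 and PPCK2 encode kinases that activate phosphoenolpyruvate carboxylase, an enzyme of organic acid synthesis. PPCK1 had 10.08 ± 0.36 in rmc and 9.38 ± 0.35 in WT (difference 0.7, limma adjusted p = 0.12). PPCK2 had 8.52 ± 0.58 in rmc and 7.59 ± 0.7 in WT (difference 0.93, limma adjusted p = 0.251).

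TPSI1, a transcript named for its induction by phosphate starvation, had 11.95 ± 0.12 in rmc and 11.49 ± 0.76 in WT (difference 0.45, limma adjusted p = 0.395). Its difference came with 1 low WT array, replicate 1 at 10.16, while the other WT arrays read 11.68 to 12.06 and the rmc arrays 11.76 to 12.05. PAP1 had 7.42 ± 0.52 in rmc and 6.43 ± 0.83 in WT (difference 0.99, limma adjusted p = 0.47). RNase LX (rnalx), an intracellular ribonuclease known to accumulate in phosphate-starved tomato cells, is outside this list. It read 9.99, 8.61, 10.56, 11.09 and 10.03 in rmc, against 7.69, 7.7, 7.55, 9.43 and 9.35 in WT, and the difference of 1.71 ± 0.48 did not pass (limma adjusted p = 0.0869).

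No tested gene of ammonium uptake and assimilation was called between the genotypes, both of which had received ammonium. The nitrogen list held 7 tested probe sets of 6 genes, with a median difference of -0.03. Of them 0 were called and 0 had an unadjusted p under 0.05 (limma), against 1.09% and 12.3% of all tested. At that rate of calls, 0 of 7 says little about these genes. The mean was higher in rmc for 2 of the 7, but for 6 of the 7 with scaling to the poly-A controls, so these genes have no direction that holds under each scaling. AMT1-2, an ammonium transporter gene, read 10.45, 10.85, 10.04, 10.18 and 10.72 in rmc, against 10.75, 10.73, 10.59, 10.41 and 10.55 in WT. The rmc values reached beyond the WT values on both sides, and the difference was -0.16 (95% interval -0.67 to 0.36).

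gts1, a glutamine synthetase gene, had 11.63 ± 0.42 in rmc and 11.57 ± 0.32 in WT on its brighter probe set, a difference of 0.06 (95% interval -0.58 to 0.71). gdh1, a glutamate dehydrogenase gene, had 11.8 ± 0.11 in rmc and 11.7 ± 0.09 in WT, a difference of 0.1 (95% interval -0.14 to 0.34). For GS2 the interval ran from -1.43 to 0.56 around a difference of -0.43. Intervals were far wider for yfe37 (-2.44 to 2.37) and gad2 (-1.57 to 1.52), which entered by names of glutamate decarboxylase. The annotation also names gad2 GAME11, an enzyme of steroidal glycoalkaloid synthesis. The amino acid transport list had 0 of 4 tested called, with differences of -0.62 for AAP1, 0.25 for AAP2, 0.45 for AAP3 and 0.08 for ProT1.

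The ethylene list was large and had no called member, with 21 of its 25 tested probe sets higher on average in rmc. That count was 21 to 24 over the 5 scalings. Its median difference was 0.24, against 0.006 over all tested. Unadjusted p was under 0.05 for 6 of the 25, all with a higher rmc mean, against 5.82% of all tested in that direction. Of these 6, 3 were probe sets of 1 gene, ACO6. The list was chosen with earlier results of the same data known, and neither the counts nor the median carry a test. The largest differences were those of ACO6, an ACC oxidase gene for the last step of ethylene synthesis. Its probe set of highest mean signal read 10.06, 8.41, 9.37, 9.58 and 8.56 in rmc, against 8.03, 7.71, 8.24, 7.62 and 7.16 in WT. No rmc array fell to the WT range, but the difference of 1.44 ± 0.39 missed the threshold (limma adjusted p = 0.0662). The other ACO6 probe sets differed by 1.88 (no overlap, limma adjusted p = 0.0966) and 1.57 (with overlap, limma adjusted p = 0.151). With scaling to the poly-A controls 2 ACO6 probe sets were called.

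Members of ethylene perception and signalling differed by less. Of 18 tested, 14 had a higher mean in rmc, with a median of 0.21. The receptor genes ETR1 and ETR2 differed by 0.24 and 0.35 (95% intervals 0.05 to 0.44 and 0.03 to 0.67), with limma adjusted p of 0.265 and 0.347. EIL1, a transcription factor of the response, differed by 0.22 (0.01 to 0.42, adjusted p = 0.356), and EIN2, the membrane protein upstream of it, by 0.33 (-0.03 to 0.68, adjusted p = 0.45). The synthesis members, 7 tested, all had a higher mean in rmc with a median of 0.43, and 3 of them are ACO6 probe sets that read 1 gene.

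**Figure D3:**
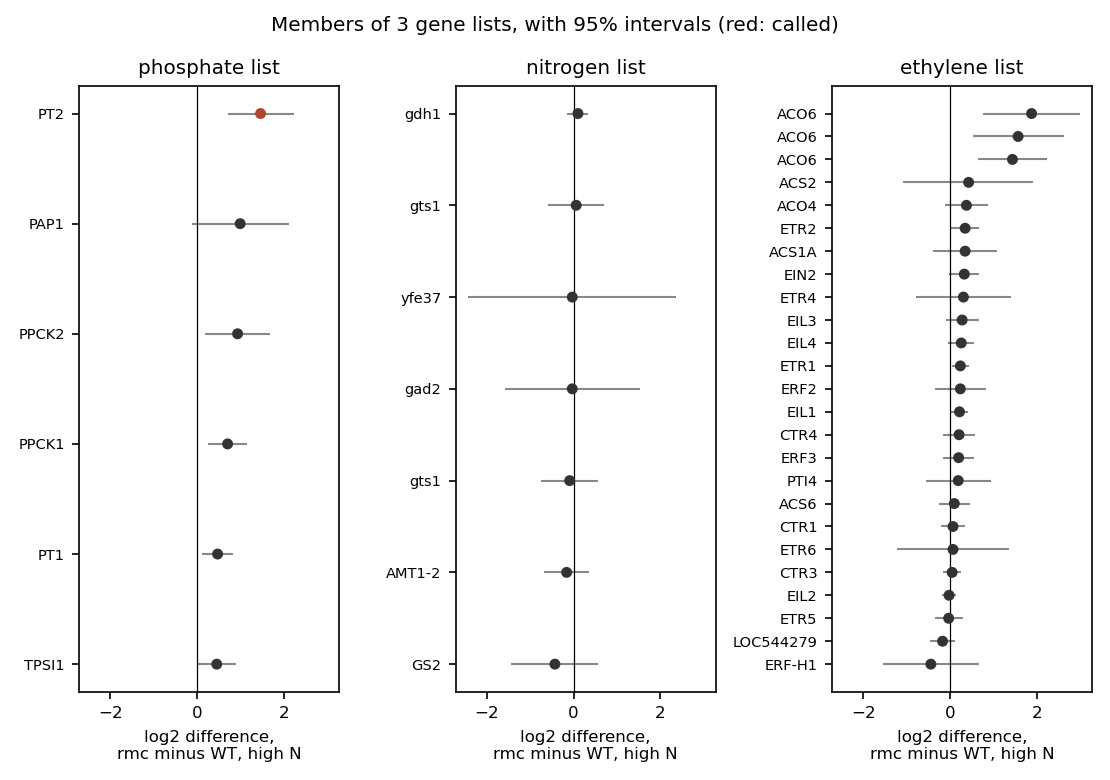
Log2 difference between rmc and WT at high N (horizontal axis, rmc minus WT) with 95% intervals for tested members of the phosphate, nitrogen and ethylene lists, 1 row for each probe set. PT2, in red, is the single called member; the phosphate members lie right of 0, the nitrogen members straddle it and the ACO6 probe sets lead the ethylene list.

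The remaining lists had 1 call between them, that of HSP17.4 on the heat shock list, where 1 of 2 tested was lower. Over all tested 1.09% were called, so 0 calls in a short list say little about its genes. Among metal genes, 0 of 7 tested were called, and 2 had an unadjusted p under 0.05, both with a lower rmc mean, against 6.5% of all tested. The metallothionein gene MTA read 9.88, 11.51, 9.34, 9.44 and 9.11 in rmc, against 11.88, 11.8, 10.34, 11.71 and 11.25 in WT. rmc replicate 2 lay with the WT arrays, apart from the other rmc arrays, and the difference of -1.54 ± 0.49 did not pass (limma adjusted p = 0.144). A second metallothionein gene, MT3, differed by -1.33 ± 0.54 (limma adjusted p = 0.279).

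Transporters of sulfate and other solutes had 0 of 8 tested called, and 5 of the 8 had a higher mean in rmc (median 0.1). Unadjusted p was under 0.05 for 2 with a higher and 1 with a lower rmc mean, against 5.82% and 6.5% of all tested. The lower one was ST2, the largest fall of the list (-1.04 ± 0.36, limma adjusted p = 0.19). The cell wall list had 0 of 18 called, the sugar list 0 of 17, the defence list 0 of 16, the antioxidant list 0 of 14 and the isoprenoid list 0 of 12. The transcription factor list had 0 of 11 called, the hormone list, which does not include GA3ox1, 0 of 7, the translation list 0 of 5 and the aquaporin list 0 of 2. Their median differences lay between -0.25 and 0.3. Within the defence list 9 of the 16 tested had a higher mean in rmc, with a median of 0.01. P69B, a secreted protease of the defence response that is outside this list, differed by -1.36 ± 0.49 (limma adjusted p = 0.219).

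The genotype difference at high N could be set beside that at low N and in water, which share no array with it. Of the 82 probe sets called at high N, 82 had the same sign at low N and 81 in water, against 74.6% and 67.2% of all tested. With that shared spread, the tests called 49 of the 82 at low N (59.8%) and 28 in water (34.1%). Over all tested the rates were 1.95% at low N, with 147 calls (0.531% higher and 1.42% lower in rmc), and 0.478% in water, with 36 (0.199% higher and 0.279% lower). Seen from the other side, the shared calls were 33.3% of those at low N and 77.8% of those in water. The probe sets called higher at high N had a median difference of 0.71 at low N and 0.66 in water, and those called lower had -0.73 and -0.53. Picking them at high N by itself tends to make their high N differences the larger ones, so these medians are no sign of a treatment effect.

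Calls in all 3 treatments numbered 28, of which 7 were probe sets of named genes. The psi14B probe set of highest mean signal was among them, with 10.06 ± 0.66 in rmc and 7.12 ± 0.96 in WT at low N, and 9.74 ± 1.02 in rmc and 6.41 ± 0.5 in WT in water (limma adjusted p = 0.00762 and 0.00275). So was the second psi14B probe set, whereas the third passed at low N but not in water (limma adjusted p = 0.0189 and 0.0971). The brighter ail probe set differed by 0.84 at low N and 0.81 in water (limma adjusted p = 0.0164 and 0.0439). HSP17.4 differed by -4.75 at low N and -3.91 in water, GA3ox1 by -2.61 and -2.88, LOC543717 by -3.52 and -2.57, and IMP3 by 0.73 and 0.74, all past the threshold. PT2 differed by 0.96 at low N and 1.37 in water and passed in neither (limma adjusted p = 0.191 and 0.118). psi14A differed by 2.7 and 2.57 and passed in neither (limma adjusted p = 0.0864 and 0.214). LOC544264 was likewise called at high N alone, with -1.29 at low N and -1.24 in water (limma adjusted p = 0.0693 and 0.164).

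No difference of the high N contrast from the others was called for the 33 probe sets called at high N alone. Of them, 32 had one sign in all treatments. The test of the difference itself (the contrast at high N minus that in water, or minus that at low N, limma) called 0 of the 33 in either case, with an unadjusted p under 0.05 for 6 and 5 of them, against 1.28% and 1.42% of all tested. The 33 were picked for passing at high N and failing elsewhere, which by itself raises these counts, so they are no sign of a difference between treatments. The remaining 1 had the opposite sign in water. It has no gene name, was picked out after its values were seen, and differed by -1.19 at high N, -0.21 at low N and 0.04 in water.

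**Figure D4:**
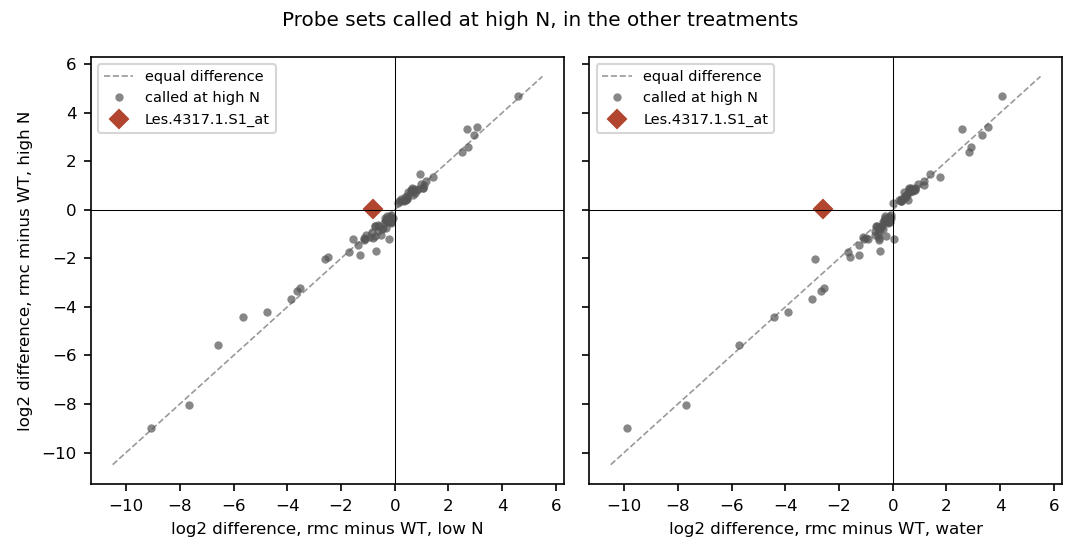
Log2 difference between rmc and WT at high N (vertical axes) against that at low N (left) and in water (right) for the 82 probe sets called at high N, with the line of equal difference. Points far from 0 keep their sign. Many falls are smaller in water than at high N (median -0.53 in water), which picking the probe sets at high N by itself favours. The probe set whose difference depended on treatment, added as a diamond, sits at 0.04 at high N with -0.8 at low N and -2.58 in water.

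Over all 7528 probe sets, the genotype difference at high N departed from that in water for 1 (0.0133%, limma), and from that at low N for 0, with 96 (1.28%) and 107 (1.42%) at an unadjusted p under 0.05. The unadjusted counts depended on the setting: for the contrast with water the count was 2004 with poly-A scaling, which shifted the median of all probe sets by 0.562, and with array weights the counts were 371 and 381. The 1, shown as a diamond in the plot of treatments, has no gene name. In water it read 8.65, 8.18, 7.74, 8.19 and 8.05 in rmc, against 11.26, 10.93, 9.96, 10.66 and 10.91 in WT. At low N it read 9.36, 9.24, 10.8, 10.49 and 10.8 in rmc, against 11.03, 11.15, 9.91, 11.23 and 11.36 in WT. At high N it read 11.36, 11.89, 11.69, 11.94 and 12.29 in rmc, against 11.71, 11.74, 11.64, 12.14 and 11.74 in WT.

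The genotypes were fully separate in water and overlapped at both ammonium doses, where the rmc arrays lay higher than in water. The difference was -2.58 in water, -0.8 at low N and 0.04 at high N (95% interval -0.57 to 0.65), and the change of 2.63 ± 0.42 between high N and water passed the test (limma adjusted p = 0.00918). It was called without any 1 array of those treatments and under each other setting tried. The rmc doses carry another label than the WT doses, so the dose and the genotype cannot be told apart in this change.

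**Figure D5:**
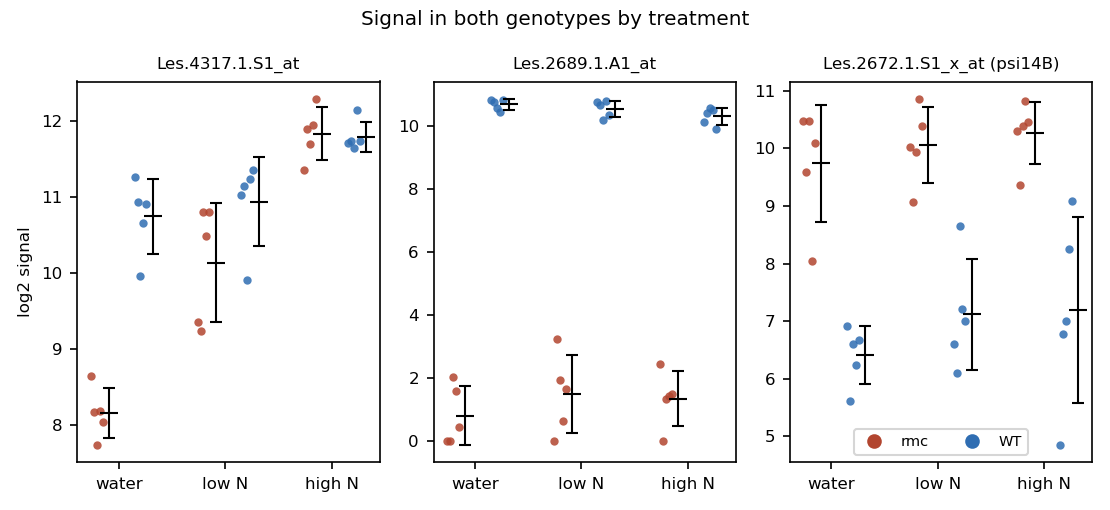
Log2 signal in water, at low N and at high N for 3 probe sets, rmc in red left of WT in blue within each treatment, 1 point for each array, with mean and SD as bars; each panel has its own vertical scale. In the left panel rmc lies below WT in water and overlaps with it at high N; in the middle panel, the first probe set of the bounded pair, rmc is low in each treatment, and in the right panel psi14B is high in rmc in each.

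Averaged over the 3 treatments, 928 probe sets (12.3%) differed between rmc and WT, 355 higher (4.72%) and 573 lower (7.61%) in rmc (limma). This average includes the high N arrays and has 3 times as many arrays behind it. In it 4 of the 6 phosphate probe sets were called higher, with differences of 1.26 for PT2, 0.79 for PPCK2, 0.6 for PPCK1 and 0.35 for PT1. The ethylene list had 4 called higher, the ACO6 probe sets at 0.96, 1.26 and 1.09 and EIL1 at 0.19, and the nitrogen list had 0 called. RNase LX differed by 1.58 (adjusted p = 0.000371) and MTA by -1.44 (adjusted p = 0.00131).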

How the data were processed

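The authors deposited 1 log2 MAS5 signal per probe set for 30 arrays. MAS5 and Affymetrix Expression Console come from the submitters' processing notes, and the sources used here give no versions. Per the labels' protocols, 200 ng of RNA from a modified column extraction was amplified with a commercial kit. These sources hold no detection calls or scan dates, so no batch was tested, and a shift common to all transcripts is removed by the scaling.

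From 10209 probe sets, 108 array and 63 reporter controls were removed, and of the rest the 25% with the lowest mean signal (log2 under 5.612), leaving 7528 to test. Gene symbols came from the platform's annotation, possibly outdated, with 1 symbol for 909 probe sets (802 genes) and none for 9129; RefSeq (assembly SLM_r2.1) listed the genes of 885 of the 909. Lists were matched by symbol and synonym only. Coordinates and sequences are not printed, since the build behind the values is not named.

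Differences were fitted with limma 3.58.1 in R 4.3.3 (group means of 6 groups, contrasts, eBayes with trend) on all 30 arrays, two-sided, adjusted by Benjamini-Hochberg over 7528 probe sets with a threshold of 0.05. Fold changes are 2 to the power of a log2 difference. For array measures, two-sided exact permutation tests were used. A probe set has only a bound where all 5 arrays of a genotype read at or under the highest of the 23 negative controls, a rule added after the data were seen. The fit was tested on simulated data. The p-values measure the spread between these samples, and their precision is limited by the number of arrays.

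The members and lists were chosen with earlier results of these data known. Named genes are the called probe sets with 1 gene name, up to 12 a direction, each gene by its brightest probe set; all tested members of the nitrogen, phosphate, ethylene and amino acid transport lists; up to 4 called members of other lists, here or in the average over treatments; and no more than 2 unnamed probe sets a direction, whose identifiers stand in the plots. rmc and WT samples share replicate numbers. Deviations of same-numbered high N arrays from their group means correlated at 0.111, 0.227, 0.358, 0.463 and 0.109, all over 0.1. At low N the same correlations ran from -0.266 to 0.255, and in water from 0.05 to 0.456. At high N the same-numbered WT array was the best match for rmc replicates 4 and 5 only. These values are a weak hint of pairing, from the data and not from the labels. The main fit did not use it, and the replicate block was run only as another setting. Other settings were another filter or scaling, a floor, array weights, no trend, the replicate block, the 10 arrays alone and leaving out each array. Python 3.11.15, pandas 2.3.3 and matplotlib 3.10.9 served for tables and figures.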

Additional observations from a re-analysis of the deposited data

Results flagged for a closer look

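Within groups of 5 arrays at high N, 176 tests for a value far from the rest gave 11, and chance alone gives about 1 in 20. In rmc, replicate 2 stood below the others for PT2 (9.98, others 10.73 to 11.03), for the third psi14B probe set (4.92, others 8.83 to 10.42), for both ail probe sets (11.28, others 11.9 to 11.95, and 10.46, others 10.88 to 11.01) and for the second largest unnamed rise (9.16, others 10.73 to 11.24). Each of these probe sets was called higher in rmc with that array included. The call held for each without it, but leaving out the lowest rmc array by itself makes a rise larger, so this is no separate support. Each of these calls was lost in some of the other fits with 1 high N array left out, as given above. The second probe set of the bounded pair was lowest in rmc replicate 3 (0.07, others 2.02 to 2.75), under the negative controls with the rest of its group.

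In WT, replicate 1 stood below the others for TPSI1 (10.16, others 11.68 to 12.06) and bZIP1 (9.86, others 10.4 to 10.6) and above them for CYP1, the 1 gene of the senescence list (11.06, others 10.58 to 10.67). Replicate 4 stood above for the probe set whose genotype difference depended on treatment (12.14, others 11.64 to 11.74). WT replicate 3 had the smallest share of probe sets at the lowest value (2.27%, others 2.59% to 2.66%).

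The genotype difference of that last probe set was 2.63 higher at high N than in water by the test of that difference (log2, limma adjusted p = 0.00918). In rmc it averaged 11.83 at high N and 8.16 in water, and in WT 11.79 at high N and 10.75 in water.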

How the results depend on the processing

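The number of probe sets called at high N, 82, stayed within 1.5 times under the other filters and floor, without the intensity trend, and with quantile, median or hybridization-control scaling (59 to 100). It was 44 with scaling to the poly-A controls, 657 with array weights, 5 in the fit on the 10 high N arrays alone and 2 with the replicate block in that fit. With the replicate block over all 30 arrays it was 123, and the block over 30 arrays ended no call of a named gene. Leaving out 1 array gave 23 to 142. Poly-A scaling shifted the median of all probe sets by 0.188 (log2) and left 32 higher and 12 lower in rmc (72.7% higher, against 42.7%), and with a stricter filter on low signal 54.2% were higher (32 and 27). Without rmc replicate 2, 80 were higher and 62 lower, so which direction held more calls depended on the setting. The cause was not tested. In the 10-array fit the 12 named probe sets called otherwise had limma adjusted p from 0.0637 (HSP17.4) to 0.195 (LOC544264), and both probe sets of the bounded pair were called.

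The count for the average over treatments, 928, was 143 with poly-A scaling and 2151 with array weights, and 766 to 1250 with 1 array left out. The counts for the change of the genotype difference kept their values of 1 (from water) and 0 (from low N) in all settings run, with 1 to 1 and 0 to 0 with 1 array left out. No named gene that was called changed sign under these settings. Low signals limit HSP17.4 and the bounded pair in rmc, and the third psi14B probe set in WT, where readings lie near or under the negative controls.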
